A study of Mus musculus with 6 samples.

Results

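The genes that encode the proteins of the cytosolic ribosome were examined in intestinal adenomas of mice carrying a germline truncation of *Apc*. They were taken as the protein-coding genes whose symbol is *Rpl* or *Rps*, a number and at most a closing a, x or l, together with *Rplp0*, *Rplp1*, *Rplp2* and *Rpsa*. This rule found 80 of the 34866 genes of the count table, 31 of the 40S subunit and 49 of the 60S subunit, and used no measured value. The genotypes *ApcMin*/+ and *Apc1322T*/+ were compared, with 3 libraries each, both on the C57BL/6J background, at ages between 100 and 120 days. *ApcMin* mice carry a nonsense allele that truncates the Apc protein early, and *Apc1322T* mice an allele that truncates it further downstream. Every mouse was heterozygous for a truncating allele, no wild-type tissue was among these libraries, and per the study's methods a library usually pooled several RNA extractions from a single mouse. Single-end 50-base stranded reads had been assigned to transcripts with Salmon, which divides a read that matches several genes between them, so the values are estimated counts.

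Ribosomal proteins are needed in near-equal numbers, since nearly all of them are present once in each ribosome, and their messages are among the most abundant of a growing cell. The small 40S subunit binds the messenger RNA and the large 60S subunit forms the peptide bonds. Most of these messages begin with a C followed by a run of pyrimidines, the terminal oligopyrimidine tract, through which their translation follows nutrient and growth signals. In the intestine, ribosome production is high in the dividing crypt cells and is a known output of the transcription factor Myc, itself a target of the Wnt pathway that Apc restrains. Mammalian genomes hold many processed pseudogenes of these genes, intronless copies made from their messages, which matters for how short reads are assigned.

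The pyrimidine tract was looked for at the annotated starts in RefSeq (GRCm38.p6), where 60 of the 80 genes had an entry. A C within 5 bases of the start, followed by at least 4 bases that were each C or T, was present in 28 of the 60 genes (46.7%). The 60 genes had 72 annotated starts, and a gene with several was counted if any of them matched, here and for the letters below. The share was 21.7% over the 16792 genes of the table with an entry, and 23.5% over those of them tested below. The 30 bases from 10 before the start to 20 from it are shown for 5 genes with a tract that recur in the results, with the tract in capitals, and for 3 genes without one by this definition, all in lower case. For *Rpl35a* the start with a tract is shown, and its other annotated starts had none.
*Rps6* (chr4:86857348-86857377, minus strand): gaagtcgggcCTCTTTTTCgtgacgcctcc
*Rpl12* (chr2:32961702-32961731, plus strand): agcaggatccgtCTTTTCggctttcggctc
*Rplp2* (chr7:141447641-141447670, plus strand): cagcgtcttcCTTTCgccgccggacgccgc
*Rpl35a* (chr16:33056472-33056501, plus strand): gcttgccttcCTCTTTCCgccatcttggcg
*Rps27* (chr3:90213629-90213658, minus strand): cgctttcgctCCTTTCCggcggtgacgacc
*Rpl5* (chr5:107900518-107900547, plus strand): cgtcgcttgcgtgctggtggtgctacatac
*Rpl11* (chr4:136053374-136053403, minus strand): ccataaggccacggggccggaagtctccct
*Rplp0* (chr5:115559457-115559486, plus strand): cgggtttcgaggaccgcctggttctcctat
An annotated start that lies a few bases from the one used in the cell hides a tract, so the 46.7% is the share for these annotated positions. In the 300 bases from 250 before the start to 50 from it, both strands searched, the letters CCGGAA, the core of many ETS factor sites, lay in 33 of the 60 genes (55%) and in 21.3% of all genes with an entry. This was not particular to these genes. CCGGAA lay in 58% of the mitochondrial ribosomal protein genes, 40.7% of the translation factor list used below and 28.1% of the genes tested below. The letters CACGTG, the E-box that Myc binds, lay in 10% and 9.05%, TATAAA in 10% and 14.4%, and GATGGCGG in 3.33% and 2.70%. Over the genes tested below, the shares were 10.9% for CACGTG, 10.2% for TATAAA and 3.64% for GATGGCGG. A match is a description of these letters and not a bound site.

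In total, ribosomal protein genes took between 2.43% and 3.25% of the estimated counts of a library. The share was 3.22%, 2.43% and 2.43% in *Apc1322T* replicates 1, 2 and 3, and 3.15%, 3.06% and 3.25% in *ApcMin* replicates 1, 2 and 3. *Apc1322T* replicate 1 thus lay among the *ApcMin* libraries, the other two *Apc1322T* libraries lay below all 4, and the genotypes overlapped. The means were 2.69% ± 0.454 (SD, n = 3) in *Apc1322T* and 3.16% ± 0.0983 (SD, n = 3) in *ApcMin* adenomas. Their difference of 0.463 percentage points was about the size of the SD among the *Apc1322T* libraries, and it was 0.725 percentage points when *Apc1322T* replicate 1 was left out. The 95% Wilson interval of each share was at most 0.0137 percentage points wide, which covers counting error only. In bulk tissue, a smaller share of cells rich in these messages and fewer messages per cell cannot be told apart.

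**Figure D1:**
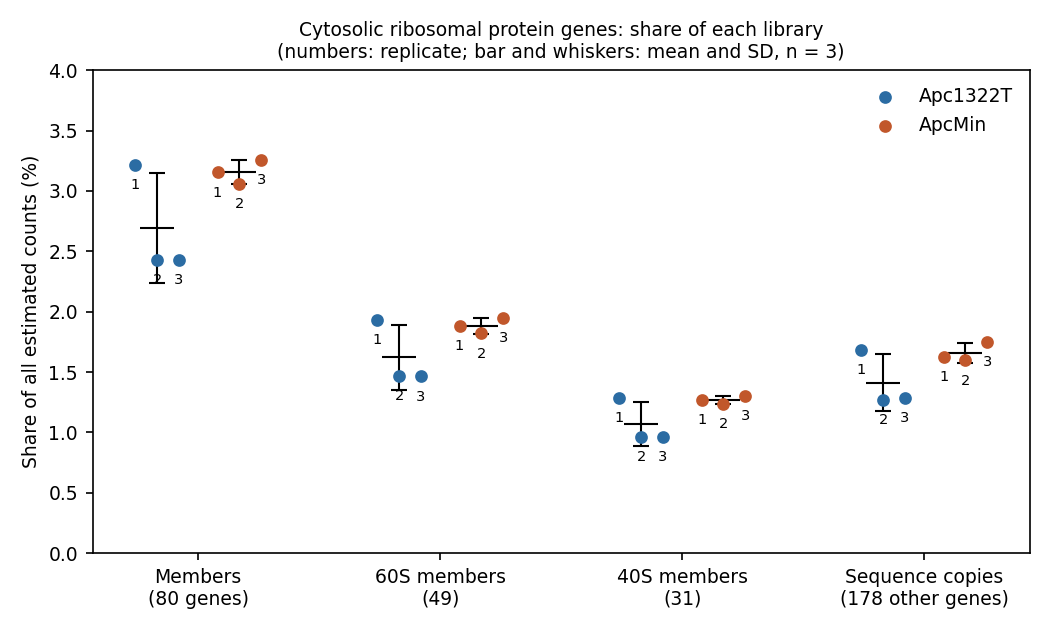
Share of all estimated counts of a library (%) held by the 80 ribosomal protein genes, by those of the 60S and 40S subunits, and by 178 other genes of near-identical sequence, for 3 *Apc1322T* and 3 *ApcMin* libraries (points, numbered by replicate; bar and whiskers give mean and SD). In each set *Apc1322T* replicate 1 lies with the *ApcMin* libraries, between 3.06% and 3.25% for all 80 genes, and replicates 2 and 3 lie together at 2.43%.

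Totals per library ran from 23132460 to 33518324 estimated counts. A level of 3 counts was therefore 0.0895 to 0.130 CPM, the counts divided by the library total and scaled to a common sum. After filtering on low counts, 16536 genes were tested, and 77 of the 80 ribosomal protein genes were among them. The other 3 were paralogs whose known expression is largely confined to other tissues. *Rpl10l*, a testis paralog of *Rpl10*, and *Rpl39l*, a paralog of *Rpl39*, had 0 counts in every library, which allows a level of up to 0.130 CPM. *Rpl3l*, the paralog of *Rpl3* found in heart and skeletal muscle, had 1, 2 and 0 counts in the *Apc1322T* and 10, 1 and 4 in the *ApcMin* libraries. The samples carried the messages of intestinal epithelium, with all 10 epithelial markers tested and *Epcam* at between 1887 and 2642 CPM.

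Between the genotypes, no ribosomal protein gene passed the study's threshold. With edgeR's quasi-likelihood test after TMM normalisation and Benjamini-Hochberg adjustment, the adjusted p was under 0.01 for 0 of the 77 genes and for 0 of all 16536 genes (0%), and the smallest adjusted p among the 77 was 0.344. At an unadjusted p under 0.05 there were 0 of 77 in either direction, against 1239 of 16536 genes higher (7.49%) and 1256 lower (7.6%) in *ApcMin* adenomas. With DESeq2's Wald test, 0 ribosomal protein genes had an adjusted p under 0.01, against 194 of 17503 genes (1.11%). At an unadjusted p under 0.05 there were 0 in either direction by that test, against 1356 of 25171 genes higher and 1532 lower in *ApcMin* adenomas. The differences were small and mostly of the same sign. The median log2 fold change, *ApcMin* over *Apc1322T*, was 0.09 for all 77 genes, 0.10 for the 31 genes of the 40S subunit and 0.08 for the 46 tested genes of the 60S subunit, and 0.02 for all genes tested. Of the 77 genes, 64 (83.1%) had a positive log2 fold change, against 52.4% of all genes tested. Of the same genes, 75 lay within 0.3 of 0, and 46 lay within 1 standard error of 0. No share over all genes was computed for these distances from 0, so they describe the 77 genes only.

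The scaling moved all of these values together. TMM factors were between 0.910 and 1.00 in *Apc1322T* and between 1.05 and 1.07 in *ApcMin* libraries. With library totals in place of TMM, the median log2 fold change of all genes shifted from 0.02 to 0.17 and that of the ribosomal protein genes from 0.09 to 0.24, and all 77 were positive, as were 73.3% of all genes tested. Then 11 of 77 (14.3%) were higher in *ApcMin* adenomas at an unadjusted p under 0.05, against 15.7% of all genes, and 0 were lower, against 2.11% of all genes. Relative to the median of all genes, the ribosomal protein genes lay 0.07 higher with TMM and 0.06 higher with library totals.

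**Figure D2:**
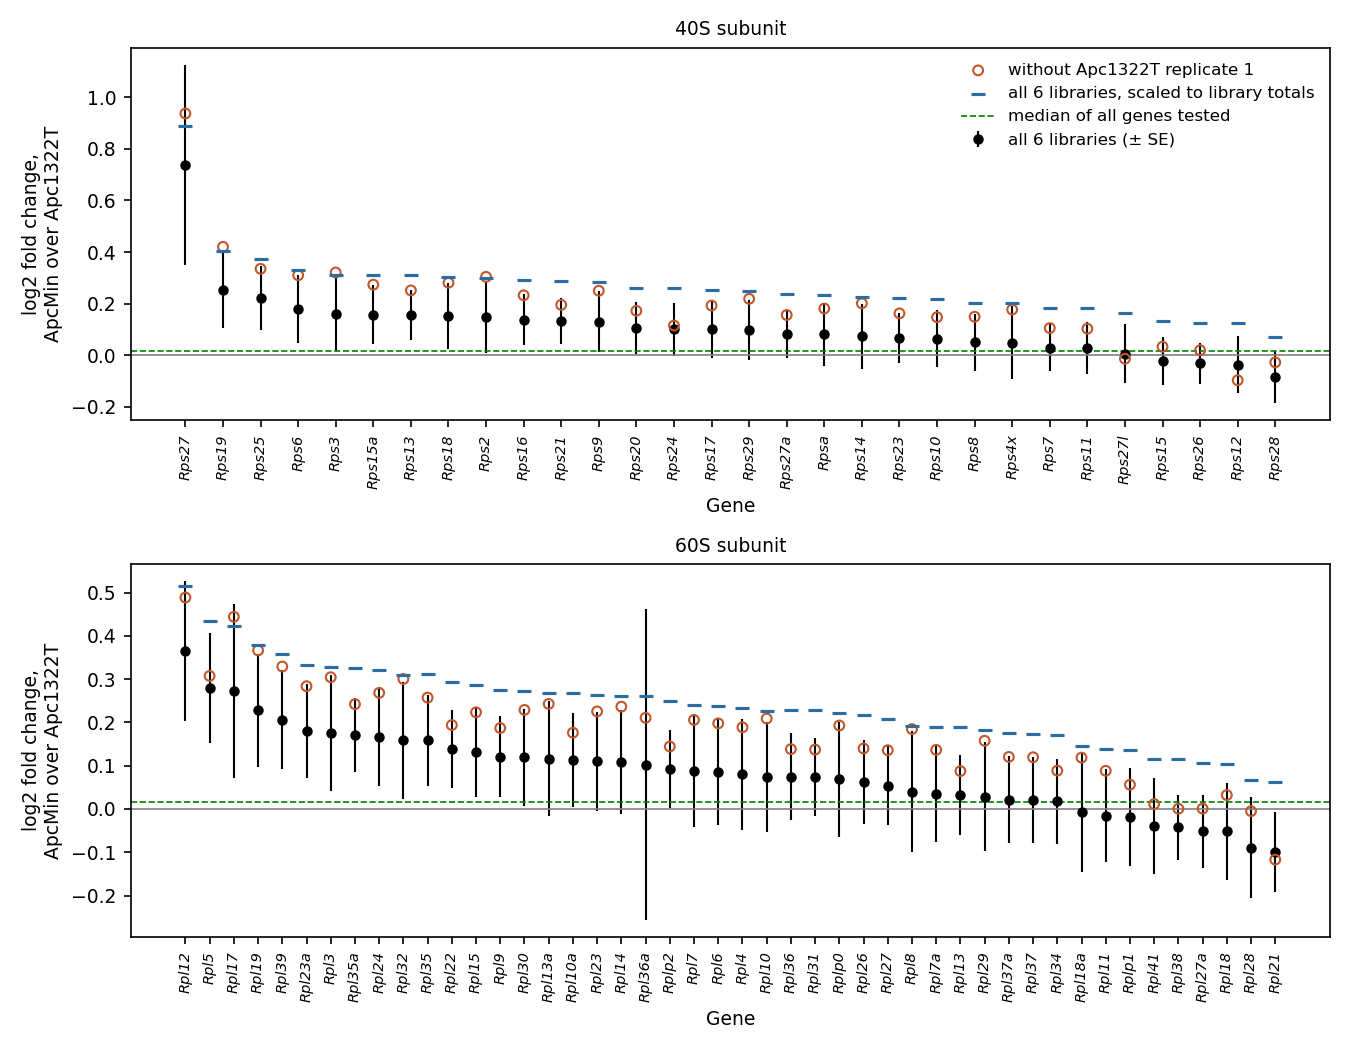
Log2 fold change of 76 tested ribosomal protein genes, *ApcMin* over *Apc1322T*, by subunit and in order of size, from the fit of all 6 libraries (black points, whiskers give the standard error), without *Apc1322T* replicate 1 (open circles) and with library totals as scaling (dashes); the dashed line is the median of all genes tested. Most black points lie between 0 and 0.3, the open circles mostly lie above them, and all dashes are above 0.

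The genes differed more among the *Apc1322T* libraries than between the genotypes. The median SD of log2 CPM (TMM normalised, prior count 2) over the 77 genes was 0.16 among the *Apc1322T* and 0.08 among the *ApcMin* libraries. In 61 of the 77 the SD among *Apc1322T* libraries was larger than the absolute log2 fold change. The share of all genes tested was not computed for this count, so it is not read as particular to these genes. The median log2 CPM of the 77 genes was 8.18, 7.97 and 7.89 in *Apc1322T* replicates 1, 2 and 3, and 8.09, 8.07 and 8.14 in *ApcMin* replicates 1, 2 and 3. *Apc1322T* replicate 1 was the highest of the 6 libraries in 40 of the 77 genes (51.9%), against 15.2% of all genes tested. Replicates 2 and 3 of *Apc1322T* were both below the other 4 libraries in 55 (71.4%), against 18.5% of all genes tested. By CPM of the library total, the latter held for 74 of 77 genes (96.1%), against 36.8% of all genes tested.

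**Figure D3:**
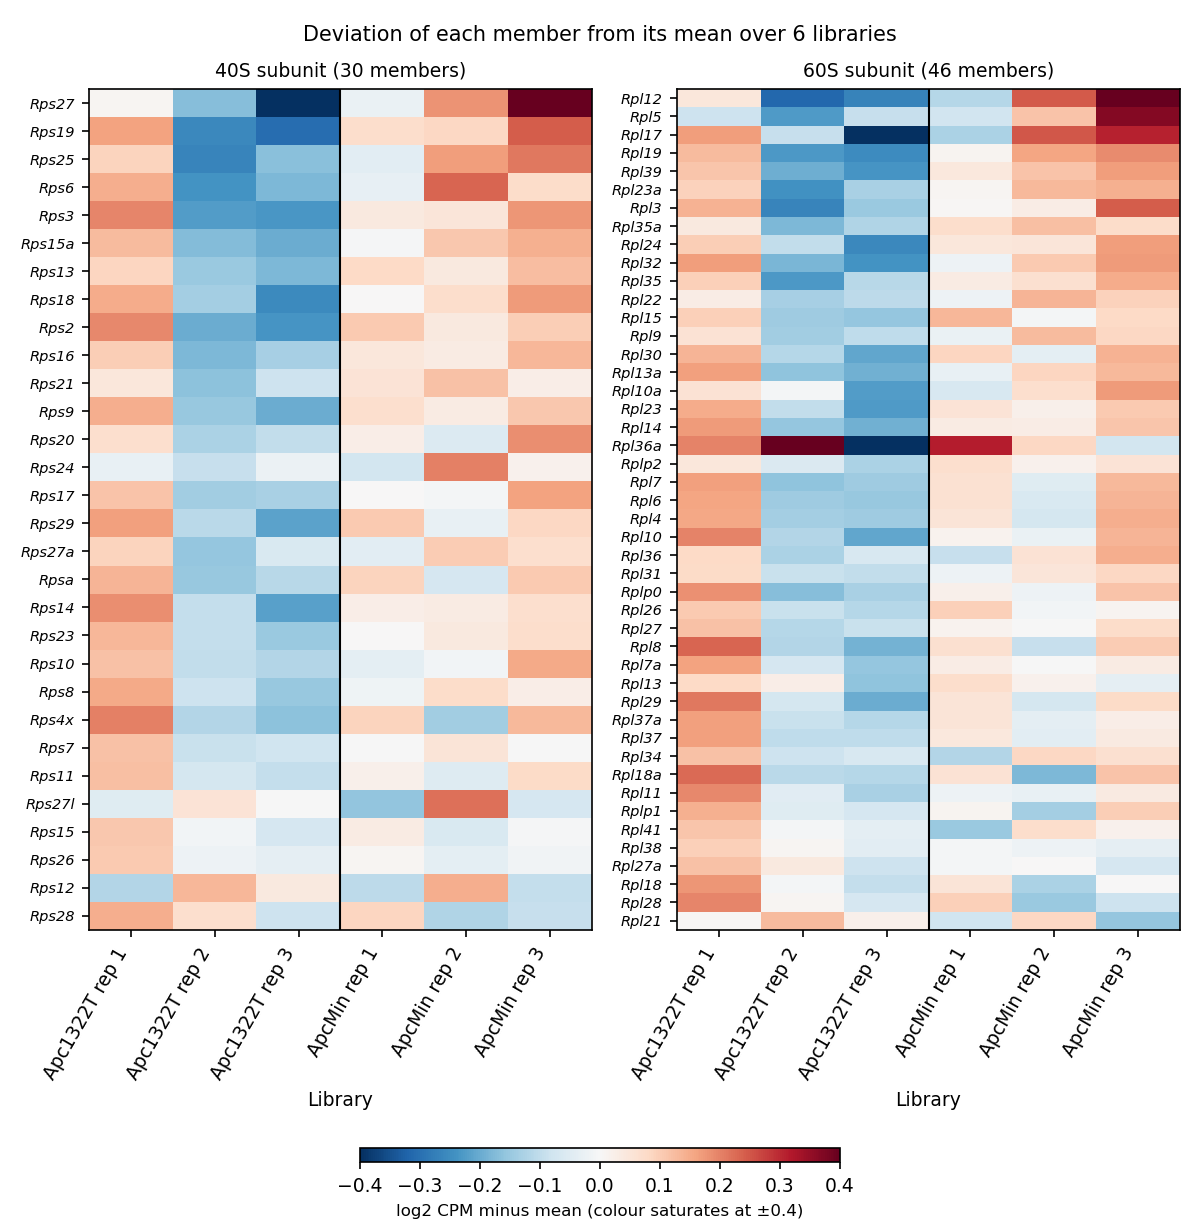
Deviation of log2 CPM (TMM normalised) from the mean of 6 libraries for 30 tested genes of the 40S and 46 of the 60S subunit (rows, ordered by log2 fold change) in each library (columns; the line separates *Apc1322T* from *ApcMin*); colours saturate at 0.4 in either direction. *Apc1322T* replicate 1 is mostly red, replicates 2 and 3 mostly blue, with *Rps12*, *Rps27l*, *Rpl21* and *Rpl36a* among the rows that depart from this pattern.

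Because 1 library stood apart within its genotype in these same genes, the comparison was repeated without *Apc1322T* replicate 1, as without each other library. The median log2 fold change of the 77 genes was then 0.19, against 0.04 for all 16851 genes tested, and 72 of 77 were positive. At an unadjusted p under 0.05, 25 of 77 (32.5%) were higher in *ApcMin* adenomas, against 11.2% of all genes, and 0 were lower, against 13.2% of all genes. None of the 77 reached an adjusted p under 0.05, which 205 of all genes did, and the smallest adjusted p was 0.0687 for *Rps19* (edgeR's quasi-likelihood test). The 25 genes, 11 of the 40S and 14 of the 60S subunit, had log2 fold changes between 0.22 and 0.49 and adjusted p-values between 0.0687 and 0.198. This fit leaves 2 *Apc1322T* libraries, whose agreement in these genes was already known. *Apc1322T* replicate 1 was singled out by its values in these genes, so a larger difference without it follows from that choice. The same limit goes with this fit wherever it is cited below. With any other library left out, at most 2 of the 77 had an unadjusted p under 0.05.

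Among the genes of the 40S subunit, *Rps19*, the gene most often mutated in Diamond-Blackfan anaemia, lay at 427, 290 and 286 CPM in the *Apc1322T* and at 427, 424 and 473 CPM in the *ApcMin* libraries. *Apc1322T* replicate 1 was level with the *ApcMin* libraries and the other two *Apc1322T* libraries were lower. Its log2 fold change was 0.25 (SE 0.15, edgeR adjusted p = 0.429) over all libraries and 0.42 (SE 0.09, edgeR adjusted p = 0.0687) without *Apc1322T* replicate 1. *Rps6*, whose protein is phosphorylated downstream of mTOR, lay at 224, 156 and 165 CPM in *Apc1322T* and 211, 250 and 223 CPM in *ApcMin* libraries, with a log2 fold change of 0.18 (SE 0.13, edgeR adjusted p = 0.524). The levels of *Rps6* overlapped in the same way. *Rpsa*, which encodes the laminin receptor precursor of the 40S subunit, lay at 1115, 829 and 867 CPM in *Apc1322T* and 1149, 1016 and 1141 CPM in *ApcMin* libraries, a log2 fold change of 0.08 (SE 0.12). *Rps14*, lost in a form of myelodysplastic syndrome, and *Rps20*, a gene of familial colorectal cancer, had log2 fold changes of 0.07 (SE 0.13) and 0.11 (SE 0.10). *Rps27a*, which encodes ubiquitin fused to a ribosomal protein, had one of 0.08 (SE 0.09), and the X-linked *Rps4x* one of 0.05 (SE 0.14). Over all 6 libraries, the log2 fold change of each 40S gene named here was under 2 standard errors.

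At the lower end of the 40S genes, *Rps28* had a log2 fold change of -0.09 (SE 0.10). Its log2 CPM was 7.35, 7.28 and 7.13 in *Apc1322T* and 7.30, 7.09 and 7.12 in *ApcMin* libraries, so the genotypes overlapped. *Rps26* and *Rps12* also had negative values, of -0.03 (SE 0.08) and -0.04 (SE 0.11). *Rps27l*, a p53-regulated paralog of *Rps27*, did not follow the other genes: at 73.1, 71.2 and 69.7 CPM in *Apc1322T* and 72.1, 92.4 and 75.4 CPM in *ApcMin* libraries, it was highest in *ApcMin* replicate 2 and level elsewhere. Its log2 fold change was 0.01 (SE 0.11).

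Among the genes of the 60S subunit, those of the stalk, which recruits the translation factors, were near 0. *Rplp0*, the base of the stalk and a common reference gene for normalisation, lay at 1918, 1362 and 1428 CPM in *Apc1322T* and 1825, 1747 and 1911 CPM in *ApcMin* libraries. Its log2 fold change was 0.07 (SE 0.13), those of *Rplp1* and *Rplp2* were -0.02 (SE 0.11) and 0.09 (SE 0.09), and the libraries of both genotypes overlapped for each. By CPM of the library total, *Rplp0* was 1.41-fold higher in *Apc1322T* replicate 1 than in replicate 2 and 1.16-fold higher in the *ApcMin* than in the *Apc1322T* mean.

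*Rpl5* and *Rpl11*, whose proteins form with 5S rRNA the particle that restrains Mdm2 when ribosome assembly fails, gave different values. *Rpl5* lay at 49.5, 40.7 and 45.4 CPM in *Apc1322T* and 53.0, 59.4 and 70.8 CPM in *ApcMin* libraries. Every *ApcMin* library was above every *Apc1322T* library, although the nearest differed by 0.01 on the log2 CPM scale, and the log2 fold change was 0.28 (SE 0.13, edgeR adjusted p = 0.353). *Rpl11* had a log2 fold change of -0.02 (SE 0.11). *Rpl35a* was the other gene without overlap, at a log2 CPM of 6.62, 6.41 and 6.46 in *Apc1322T* and 6.65, 6.70 and 6.66 in *ApcMin* libraries, with a log2 fold change of 0.17 (SE 0.09, edgeR adjusted p = 0.379). These 2 of 77 genes (2.6%) were the ones whose libraries did not overlap, both higher in *ApcMin*, against 11% of all genes tested, and 0 were lower without overlap, against 9.96% of all genes tested.

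The largest positive values of the 60S genes belonged to *Rpl12*, part of the stalk base, *Rpl5* and *Rpl17*. *Rpl12* lay at 72.0, 50.9 and 53.6 CPM in *Apc1322T* and 68.7, 86.7 and 96.6 CPM in *ApcMin* libraries, with a log2 fold change of 0.36 (SE 0.16, edgeR adjusted p = 0.344). *ApcMin* replicate 1 was below *Apc1322T* replicate 1. *Rpl17* lay at 13.6 to 27.1 CPM, with a log2 fold change of 0.27 (SE 0.20). The lowest values were those of *Rpl21* (-0.10, SE 0.09), *Rpl28* (-0.09, SE 0.12), *Rpl18* (-0.05, SE 0.11) and *Rpl27a* (-0.05, SE 0.08). The sign of each of these 4, and of *Rps28*, turned positive when library totals were used. *Rpl22*, a gene recurrently mutated in tumours with microsatellite instability, had a log2 fold change of 0.14 (SE 0.09). *Rpl41*, which encodes the smallest ribosomal protein, had one of -0.04 (SE 0.11), and the X-linked *Rpl10* and *Rpl39* had values of 0.07 (SE 0.13) and 0.21 (SE 0.11).

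Set against each other rather than against all genes, the ribosomal protein genes varied less between the 6 libraries. The median SD of log2 CPM over the 77 genes was 0.13 with TMM and 0.21 by library total. When each gene was divided by the summed level of all of them, which removes by construction what they share, the median SD was 0.07, and 60 of the 77 genes had an SD under 0.1. The largest were those of *Rps27* (0.53), *Rpl36a* (0.49), *Rpl17* (0.23), *Rps12* (0.22), *Rpl12* (0.22), *Rps27l* (0.20), *Rpl21* (0.19) and *Rpl5* (0.18). A fit with the summed counts of these genes as library size, added after seeing the data, centres them near 0 by construction, with a median log2 fold change of 0.01. It gave 0 of 77 genes at an unadjusted p under 0.05 in either direction, against 5.34% of all genes higher and 7% lower. The smallest adjusted p was 0.412 by edgeR's quasi-likelihood test. This scaling takes out the difference that these genes share, so the count of 0 follows in part from it.

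The level assigned to a ribosomal protein gene depended on its copies elsewhere in the genome. Of the windows of 50 bases in the transcripts of a ribosomal protein gene (GENCODE M21), the median share found unchanged in another gene of the table was 33.3% over the 80 genes. It was at least 50% in 20 genes and 0 in 4, *Rps3*, *Rpl3l* and *Rpl39l* among them. The table held 178 other genes of which at least 50% of the windows lay in a ribosomal protein gene, called sequence copies below. They belonged to 63 of the 80 genes, 9 were annotated as protein coding and 169 as processed pseudogenes, and 56 had a mean above 100 CPM. These copies took 1.68%, 1.27% and 1.29% of the *Apc1322T* and 1.63%, 1.6% and 1.75% of the *ApcMin* libraries and were likewise lowest in *Apc1322T* replicates 2 and 3. They held between 34% and 34.9% of the joint counts in every library.

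In 32 of the 80 genes the copies held more counts than the gene itself. *Rpl5* had a mean of 53.1 CPM and its copy *Gm15500* on chromosome 7 one of 792 CPM. *Rps12* had a mean of 39.8 CPM and *Rps12l1* one of 752 CPM, *Rpl12* 71.4 and *Gm10275* 456 CPM, and *Rps6* 205 and *Rps6-ps4* 641 CPM. Whether the gene or the copy was transcribed cannot be read from counts that were divided in this way. With copies added, the log2 fold change of *Rpl12* went from 0.36 to 0.23 (SE 0.14), that of *Rpl5* from 0.28 to 0.15 (SE 0.13), that of *Rpl17* from 0.27 to 0.11 (SE 0.13) and that of *Rps6* from 0.18 to 0.05 (SE 0.13). The median of the 77 genes was 0.08 with copies, against 0.09 without.

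*Rps27* was the extreme case. It encodes a zinc finger protein of the 40S subunit and had the largest log2 fold change of all, 0.74 (SE 0.39, edgeR adjusted p = 0.397). Its level was 1.96, 1.54 and 0.936 CPM in *Apc1322T* and 2.03, 2.30 and 3.87 CPM in *ApcMin* libraries, the lowest of the 77 genes. *Rps27rt*, an intronless gene on chromosome 9, lay at 199, 174 and 181 CPM in *Apc1322T* and 202, 197 and 232 CPM in *ApcMin* libraries, and the pseudogene *Gm17241* on chromosome 15 at between 77.4 and 122 CPM. Within the coding sequence, reads of 50 bases cannot separate this pair. The 255 bases of *Rps27* (chr3:90212725-90213615, minus strand, 4 coding exons) and the 255 bases of *Rps27rt* (chr9:114982453-114982707, minus strand, 1 coding exon) differed at 0 positions, and are given once. The paralog *Rps27l* (chr9:66946175-66949357, plus strand, 4 coding exons) has the same length and differs from them at 61 positions, in capitals, an identity of 76.1%. All are from GENCODE M21 (GRCm38).
*Rps27* and *Rps27rt*: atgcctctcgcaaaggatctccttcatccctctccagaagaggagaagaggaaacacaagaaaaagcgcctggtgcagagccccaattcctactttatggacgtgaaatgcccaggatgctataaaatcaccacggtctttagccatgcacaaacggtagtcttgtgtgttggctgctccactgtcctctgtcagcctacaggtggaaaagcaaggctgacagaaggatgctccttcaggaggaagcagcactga
*Rps27l*: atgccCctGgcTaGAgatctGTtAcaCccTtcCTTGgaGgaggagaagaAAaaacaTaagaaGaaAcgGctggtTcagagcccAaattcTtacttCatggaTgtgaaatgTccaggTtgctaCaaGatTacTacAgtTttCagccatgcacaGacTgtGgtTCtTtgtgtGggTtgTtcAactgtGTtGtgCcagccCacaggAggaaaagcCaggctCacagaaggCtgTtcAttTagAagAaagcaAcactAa
The longest run of identical bases between *Rps27* and *Rps27l* was 11, far under the read length, and *Rps27l* had no sequence copy in the table. With its copies added, *Rps27* had a log2 fold change of 0.08 (SE 0.10), close to the median of the other genes.

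Levels per transcript length were accordingly compared with and without copies. Per kilobase of the median annotated protein-coding transcript, the levels of the 77 genes ran from 5.29 CPM per kb for *Rps27* to 2285 CPM per kb for *Rpl13a*, a 432-fold range, with quartiles of 190 and 745 CPM per kb. With copies added, the range was from 117 to 2285 CPM per kb, 19.5-fold, with quartiles of 573 and 904 CPM per kb. The ratio of the upper to the lower quartile was 3.93 without and 1.58 with copies. *Rpl13a*, *Rpl41* (2144 CPM per kb) and *Rplp0* (1989 CPM per kb) were the highest without copies, and *Rpl22*, at 117 CPM per kb and with no copy in the table, was the lowest with them. By CPM not divided by length, the 5 most abundant genes were *Rplp0*, *Rpl4*, *Rpl13a*, *Rpl41* and *Rpl7*, each at between 903 and 1918 CPM in every library. Annotated lengths differ from the lengths of the messages present, for *Rps20* with a median of 3706 bases in particular.

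**Figure D4:**
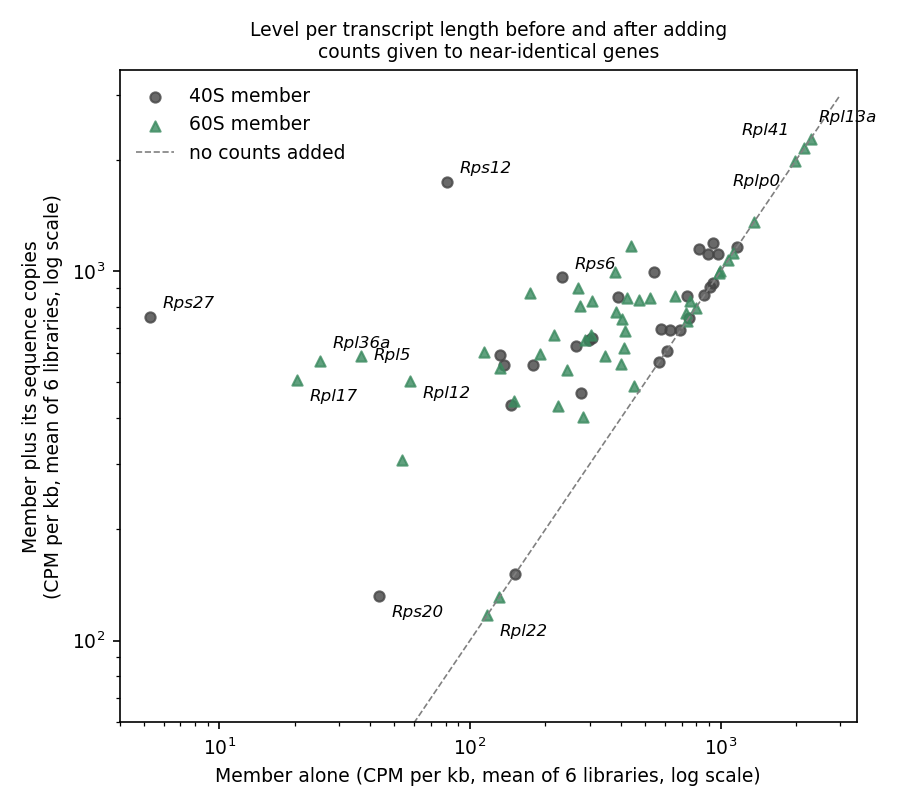
Mean level over 6 libraries per kilobase of annotated transcript for 76 ribosomal protein genes alone (x axis, CPM per kb, log scale) and with the counts of their sequence copies added (y axis, CPM per kb, log scale), 40S as circles and 60S as triangles; the dashed line marks no added counts. *Rps27*, *Rpl17*, *Rpl36a*, *Rpl5* and *Rpl12* lie between 5.29 and 57.5 CPM per kb alone and between 504 and 754 CPM per kb with copies.

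The pyrimidine tract was set against the fold changes as a description. The 28 tested genes with a pyrimidine tract at an annotated start had a median log2 fold change of 0.11, with 23 positive. The 29 with an entry and no tract had one of 0.08, with 24 positive. Over all 6 libraries, 0 of the 77 genes had an unadjusted p under 0.05 in either direction. The shares of all genes were 7.49% higher and 7.6% lower. Without *Apc1322T* replicate 1, 13 of the 28, 7 of the 29 and 5 of the 20 with no entry were higher at that threshold. The share of all genes was then 11.2%. Replicate 1 was left out for its values in these same genes, and the differences between these groups were not tested.

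Ribosomal proteins whose genes carry other names took 0.259%, 0.197% and 0.202% of the *Apc1322T* and 0.263%, 0.252% and 0.279% of the *ApcMin* libraries, again lowest in *Apc1322T* replicates 2 and 3. The 8 genes of this list, among them *Fau*, *Rack1*, *Rps3a1*, *Rpl36al*, *Rpl22l1*, *Rpl7l1* and *Rps27rt*, had a median log2 fold change of 0.08, with 5 positive, and 1 of 8 (12.5%) was higher at an unadjusted p under 0.05, against 7.49% of all genes. This was *Rpl22l1*, the paralog of *Rpl22*, at 55.3, 49.1 and 46.7 CPM in *Apc1322T* and 65.4, 71.7 and 69.2 CPM in *ApcMin* libraries. Its libraries did not overlap, and its log2 fold change was 0.29 (SE 0.08, edgeR adjusted p = 0.279). *Rack1*, a scaffold on the 40S subunit, lay at 974, 654 and 707 CPM in *Apc1322T* and 968, 876 and 1068 CPM in *ApcMin* libraries, with *Apc1322T* replicate 1 again among the *ApcMin* libraries and a log2 fold change of 0.17 (SE 0.15). *Rps3a1*, the mouse gene of a core 40S protein, had one of 0.21 (SE 0.13), and *Fau*, which encodes a ribosomal protein fused to a ubiquitin-like protein, had 0.13 (SE 0.12). *Rps27rt* was at 0.03 (SE 0.09). *Rpl36al* and *Rpl7l1* were among the 3 negative genes, at -0.08 (SE 0.08) and -0.08 (SE 0.09).

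The translation factors and related genes were also lowest in *Apc1322T* replicates 2 and 3 by their summed share. The related genes on this list include *Npm1*, *Larp1*, *Eif4ebp1*, *Tpt1*, *Naca* and *Btf3*. The 37 genes of the list took 2.42%, 1.83% and 1.88% of the *Apc1322T* and 2.33%, 2.15% and 2.36% of the *ApcMin* libraries. By log2 CPM, both of these *Apc1322T* libraries were below the other 4 in 13 of the 37 genes, against 18.5% of all genes tested. The median log2 fold change of the 37 genes was 0.005, with 20 positive and 0 of 37 at an unadjusted p under 0.05 in either direction. *Eef1a1*, which delivers aminoacyl-tRNA, lay at 6901, 4997 and 5280 CPM in *Apc1322T* and 6670, 6188 and 7159 CPM in *ApcMin* libraries. *Eif6*, which keeps 60S subunits from joining, lay at between 261 and 293 CPM in all 6 libraries, with a log2 fold change of -0.21 (SE 0.09, edgeR adjusted p = 0.334). Without *Apc1322T* replicate 1, 4 of 37 (10.8%) were higher at an unadjusted p under 0.05, against 11.2% of all genes, and 1 (2.7%) was lower, against 13.2%. The 4 were the initiation factor genes *Eif3a*, *Eif3f* and *Eif3m* and the nucleolar *Npm1*, and the lower gene was *Eif6*. These genes and *Eif4a2* are named after their values were seen. *Eif4a2*, a helicase of cap-dependent initiation, was lowest in *Apc1322T* replicate 1, at 163, 249 and 235 CPM in *Apc1322T* and 231, 272 and 208 CPM in *ApcMin* libraries.

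The proteins of the mitochondrial ribosome, which translates the messages of the mitochondrial genome, lay close together in the 6 libraries. Their 78 genes took between 0.284% and 0.314% of the *Apc1322T* and between 0.297% and 0.319% of the *ApcMin* libraries. Their median log2 fold change was -0.13, with 10 positive (12.8%), against 52.4% of all genes tested. At an unadjusted p under 0.05, 9 of 78 (11.5%) were lower, against 7.6% of all genes, and 0 were higher, against 7.49%. With library totals as scaling the median was 0.04 and 53 of 78 were positive, so the direction depended on the scaling. *Mrps15* (-0.42, SE 0.12, edgeR adjusted p = 0.279), *Mrpl12* (-0.27, SE 0.08, edgeR adjusted p = 0.286) and *Mrpl34* (-0.37, SE 0.12, edgeR adjusted p = 0.287) had the smallest p-values, and 0 of the 78 had an adjusted p under 0.05.

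*Myc*, a regulator of ribosome production, lay at 67.6, 38.4 and 43.1 CPM in *Apc1322T* and 72.3, 60.3 and 79.8 CPM in *ApcMin* libraries. The 2 lowest libraries were again *Apc1322T* replicates 2 and 3, and the log2 fold change was 0.36 (SE 0.20, edgeR adjusted p = 0.412) over all libraries and 0.60 (edgeR adjusted p = 0.0753) without *Apc1322T* replicate 1.

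**Figure D5:**
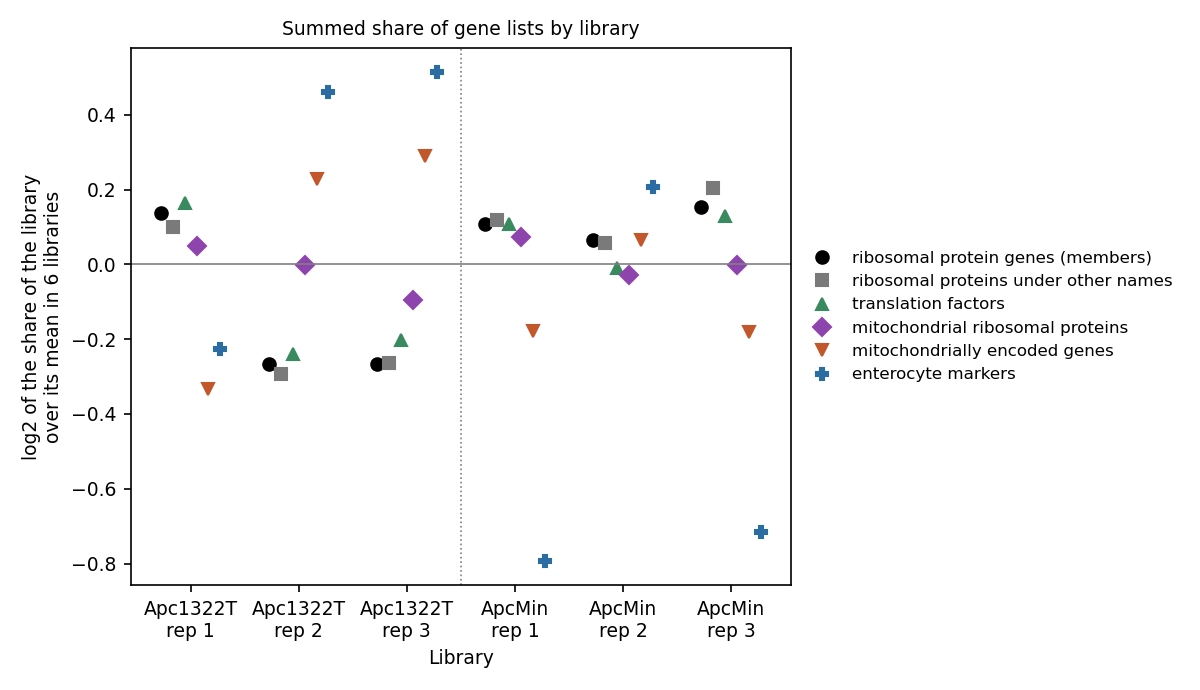
Summed share of the library of 6 gene lists, as log2 of the share over its mean in the 6 libraries (y axis), for each library (x axis, 3 *Apc1322T* on the left and 3 *ApcMin* on the right). Ribosomal protein genes under either naming and translation factors are lowest in *Apc1322T* replicates 2 and 3, where enterocyte markers and mitochondrially encoded genes are highest, and mitochondrial ribosomal proteins vary little.

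Marker genes of cell types were compared between the genotypes in the same way. All 10 epithelial markers had negative log2 fold changes, *ApcMin* over *Apc1322T*, with a median of -0.39, and 6 of 10 were lower at an unadjusted p under 0.05. With library totals, 9 of 10 were negative and 0 of 10 had an unadjusted p under 0.05. All 10 enterocyte markers were negative, with a median of -0.77 and 1 of 10 lower at that threshold, and all 10 markers of stroma and muscle positive, with a median of 0.78 and 3 of 10 higher. Of the 8 tested squamous markers 7 were positive, with a median of 1.92, and 5 of 8 were higher. *Krt14*, a keratin of basal squamous cells with a log2 fold change of 2.51, was the only gene of all 16536 with an adjusted p under 0.05 (edgeR adjusted p = 0.0485). The shares of all genes at the unadjusted threshold were 7.49% higher and 7.6% lower. By summed share, enterocyte markers, all 10 tested, took 1.71%, 2.76% and 2.86% of the *Apc1322T* and 1.16%, 2.31% and 1.22% of the *ApcMin* libraries, and mitochondrially encoded genes 3.10%, 4.57% and 4.77% and 3.45%, 4.09% and 3.44%. Both were thus highest in *Apc1322T* replicates 2 and 3, where the share of ribosomal protein genes was lowest. The 10 proliferation markers took 0.122%, 0.0983% and 0.104% of the *Apc1322T* and 0.126%, 0.110% and 0.114% of the *ApcMin* libraries. Markers of stroma and muscle (10 of 10 tested, 0.0683% to 0.179% in *Apc1322T* and 0.140% to 0.389% in *ApcMin*), leukocytes (9 of 10 tested, 0.0106% to 0.0124% and 0.0126% to 0.0407%), plasma cells (8 of 8, 0.294% to 0.481% and 0.245% to 0.777%) and squamous epithelium (8 of 10, 0.00434% to 0.00632% and 0.00704% to 0.00999%) had no marker at 0 in all libraries. The 10 epithelial markers took between 1.54% and 1.68% of the *Apc1322T* and between 1.32% and 1.53% of the *ApcMin* libraries. The part of these markers in the values of the ribosomal protein genes was not tested.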

How the data were processed

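Adenoma RNA of 3 *ApcMin* and 3 *Apc1322T* samples was sequenced, on a single lane per the study's methods. The authors quantified reads with Salmon against the GRCm38 transcriptome and deposited estimated counts per gene, not normalised. Of the values, 31.1% were more than 0.001 from a whole number, and they were rounded here. Symbols, coordinates and transcript lengths came from GENCODE M21, matched by identifier for 34652 of 34866 genes, and starts from RefSeq. Genes were filtered with filterByExpr (minimum count 10, minimum total 15), normalised by TMM and tested in edgeR 4.0.16 (R 4.3.3) by its quasi-likelihood test with robust estimation, with Benjamini-Hochberg adjustment at the study's threshold of 0.01. DESeq2 1.42.0, which the authors used, served as an alternative. Standard errors were derived from the F statistic. Nothing in the labels pairs same-numbered libraries. P-values measure the spread between these libraries.

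The genes, lists and tests were chosen with earlier results of these data known. Named genes were the stalk, 5S particle and disease-linked members, paralogs, the 5 largest and smallest fold changes and levels, genes without overlap, and up to 3 genes of a related list. A list of small nucleolar RNA host genes matched 0 genes of the table and was not used here. Alternatives were other scalings, filters and tests, added pseudogenes, a replicate block and each library left out. Tested on simulated counts, the procedure called 183 of 200 changed genes among 16280, and 2 unchanged genes. Recovery of differences as small as those of the ribosomal protein genes was not tested. Single values of 2 genes are not reported here, and these genes remain in the counts and medians.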

Additional observations from a re-analysis of the deposited data

How the results depend on the processing

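No ribosomal protein gene had an adjusted p under 0.01 in any of the fits run. The number at an unadjusted p under 0.05, 0 of 77, was 11 with library totals, 3 with the upper quartile, 1 with no filter on low counts and between 0 and 25 with each library left out, 25 without *Apc1322T* replicate 1 and 2 without *ApcMin* replicate 1. Library totals moved the median log2 fold change of all 77 genes to 0.24, that of the 40S genes to 0.25 and that of the 60S genes to 0.24, by construction of the scaling, and the upper quartile moved them to 0.14, 0.15 and 0.14; with each library left out, it lay between 0.03 and 0.19 for all, 0.05 and 0.19 for 40S and 0.03 and 0.19 for 60S genes. The difference in share lay between 0.332 and 0.725 percentage points. The replicate block gave a median of 0.09 and 0 genes at an unadjusted p under 0.05. Same-numbered libraries did not deviate together (correlations of -0.01, 0.16 and -0.29), so the numbers were not taken as pairs.

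Of 31 named genes, 13 near 0 changed direction in some setting; none had passed a test and the cause was not tested. With library totals the values were 0.137 for *Rplp1*, 0.138 for *Rpl11*, 0.117 for *Rpl41*, 0.0613 for *Rpl21*, 0.0662 for *Rpl28*, 0.0723 for *Rps28*, 0.103 for *Rpl18* and 0.106 for *Rpl27a*. With the upper quartile they were 0.0377 for *Rplp1*, 0.04 for *Rpl11*, 0.0174 for *Rpl41*, 0.0036 for *Rpl18* and 0.0052 for *Rpl27a*. With sequence copies added, an alternative chosen after seeing the data, they were 0.077 for *Rpl11*, 0.0094 for *Rpl21* and 0.0093 for *Rpl27a*, and with named pseudogenes added -0.0515 for *Rpl36a*. *Rps27l* was at -0.0102 with DESeq2's Wald test, -0.0042 with its size factors and -0.0032 with the replicate block. With each library left out, values lay between -0.0746 and 0.056 for *Rplp1*, -0.0841 and 0.0881 for *Rpl11*, -0.014 and 0.201 for *Rps14*, -0.0857 and 0.0211 for *Rpl41*, -0.0089 and 0.209 for *Rpl10*, -0.116 and 0.0811 for *Rps27l*, -0.0216 and 0.177 for *Rps4x*, -0.113 and 0.0321 for *Rpl18*, -0.106 and 0.0008 for *Rpl27a* and -0.224 and 0.393 for *Rpl36a*.

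*Rpl10l*, *Rpl39l* and *Rpl3l* had between 0 and 10 counts in a library and were not tested.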
